A study of Mus musculus with 24 samples.

Results

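The ERVL repeat types of the mouse genome were followed through the first cleavages of embryos in which MERVL RNA had been knocked down. A repeat type is a name in the RepeatMasker annotation under which the reads of all its copies in the genome are summed. Members were taken by name alone, as every counted repeat type of the class LTR/ERVL, the separate class ERVL-MaLR left aside. This gave 86 types of 1035 repeat types and 56326 counted names in all. Total RNA was sequenced from 12 libraries of 30 embryos each, 2 control (Ctrl) and 2 knockdown (MERVL-KD) libraries at each of the 2-cell (2C), 4-cell (4C) and 8-cell (8C) stages. All embryos came from B6D2F1 parents that were 8 weeks old, the libraries being labelled BDF2, and every zygote received antisense oligonucleotides (ASOs) at 20 µM by injection into the male pronucleus. The knockdown zygotes received the MERVL ASOs and the control zygotes a scrambled ASO, so no library came from uninjected embryos. The labels give 1.5 days post coitum for the 2C libraries and 2.5 days for both the 4C and the 8C libraries. The ATAC-seq samples of the series were not analysed here.

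ERVL elements are endogenous retroviruses, remnants of past germline insertions in which an internal coding region lies between a pair of long terminal repeats (LTRs). The 5′ LTR acts as the promoter. MERVL, whose internal region is annotated as MERVL-int and whose LTR is annotated as MT2_Mm, is known for a burst of transcription at the 2-cell stage, when the embryo activates its own genome. Many MT2_Mm copies are solitary LTRs without an internal region, and some serve as promoters of host genes. Other ERVL types are older relatives, among them internal regions such as ERVL-B4-int and LTRs of the MT2, MLT2 and RMER series.

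The sequences of the injected oligonucleotides are shown with the genome sites they match. These sites were not assigned to repeat types, so which types hold a site was not tested. The 3 MERVL ASOs and the scrambled control are each 20 bases long, and here they are written 5′ to 3′.
MERVL-ASO1: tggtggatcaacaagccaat
MERVL-ASO2: catttgtctgtttaccacga
MERVL-ASO3: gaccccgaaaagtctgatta
Scramble-ASO: agcgcgggtattgaaccagg

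Both strands of GRCm38 were searched for the sense-strand targets of these oligonucleotides with up to 2 mismatches. MERVL-ASO1 had 702 sites without a mismatch among 782 in all, and MERVL-ASO3 had 630 among 740. MERVL-ASO2 had no perfect site in this reference assembly, 322 sites with 1 mismatch and 59 with 2. The target that MERVL-ASO2 would pair with perfectly is set beside the variant most common in the genome, a capital marking the base that differs.
perfect target of MERVL-ASO2: tcgtggtaaacagacaaatg
commonest genomic variant: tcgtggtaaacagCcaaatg
This variant carries A14C, counted from 1 at the 5′ end of the target, and made up 311 of the 370 sites whose sequence was tabulated (84.05%). The embryos were not of the reference strain, and the genotype at these sites was not measured. The scrambled ASO had 1 site, in an intron and with 2 mismatches.

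The ASO sites lay past the LTR, which as MT2_Mm has an average copy length of 469 bases. Measured from the start of the nearest upstream LTR copy, the median site of MERVL-ASO1 was at 559 bases, that of MERVL-ASO2 at 2132 bases and that of MERVL-ASO3 at 2382 bases. Joined into loci, the sites marked 857 places in the genome, of which 349 held a site for each of the 3 ASOs, 337 for 2 of them and 171 for 1. Of 1903 sites, 1204 (63.27%) lay between GENCODE genes, 359 in an intron and 14 in an exon of a gene on the same strand, and 326 in a gene on the opposite strand only. One intergenic locus on the minus strand of chromosome 1 serves as an example, with MERVL-ASO3 at chr1:29647298-29647317, MERVL-ASO2 with 1 mismatch at chr1:29647550-29647569 and MERVL-ASO1 at chr1:29649123-29649142 of GRCm38. A search with 399 bases of the MERVL LTR found 2646 LTR copies of at least 80% identity, and 1421 of them (53.7%) had an ASO site within 7000 bases. The other 1225 LTR copies (46.3%) had none. Among the 1561 copies of at least 95% identity, 73.4% had a site within that distance.

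The libraries held from 28167085 to 41482526 counts. All 86 ERVL types had at least 1 count over the 12 libraries, with 49 to 66 types detected in a single library and 36 to 44 types at 10 counts or more. A filter on low counts left 39, 41 and 39 types for the tests at the 2C, 4C and 8C stages, 35 of them at every stage. The 43 types tested at no stage held between 1 and 73 counts over the 12 libraries, with a median of 16, and changes in them were not detectable at this depth. The labels do not say that replicates came from separate matings, so p-values measure the spread between these libraries. With 30 pooled embryos, fewer cells with a transcript and less of it per cell cannot be told apart. The summed level of 6 markers of the 2-cell embryo ran from 550 to 645 counts per 1000000 counts of the library (CPM) in the control and from 422 to 496 CPM in the knockdown 2C libraries, and at 8C from 72.6 to 76.3 CPM and from 56.6 to 76.3 CPM. For 5 markers of later cleavage the ranges were 134 to 136 CPM against 159 to 174 CPM at 2C and 369 to 379 CPM against 296 to 304 CPM at 8C. At 4C the sums ran from 106 to 109 against 94.4 to 102 CPM and from 282 to 287 against 292 to 304 CPM. Members did not move together. Tdpoz4, a listed 2-cell marker, gave 67.4 and 71.4 CPM of the control and 49.4 and 66.4 CPM of the knockdown sums at 8C. In control 2C libraries it was at 84.2 and 70.4 CPM. Of the later markers, Krt8 at 4C was at 4.27 and 5.64 against 27.1 and 29.0 CPM. Pou5f1 at 8C was at 210 and 202 against 138 and 142 CPM. The part of either list in the ERVL results was not tested. Markers of cumulus and granulosa cells summed to at most 2.62 CPM and sperm markers to at most 1.66 CPM in any library.

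ERVL types made up a larger share of the counts in control libraries than in MERVL-KD libraries at each stage. At the 2C stage the ERVL share of a library was 7.19% and 7.45% without the knockdown, and 0.472% and 0.480% with it. At the 4C stage the shares were 2.51% and 2.21% against 0.313% and 0.297%. At the 8C stage they were 1.39% and 1.40% against 0.309% and 0.282%. The groups did not overlap at any stage. The share fell from 2C to 4C in both, and from 4C to 8C it fell further in the control while the knockdown libraries at these stages overlapped. On the log2 scale the share was lower in the knockdown by 3.94, 2.95 and 2.24 at the 3 stages, with a mean of -3.04 over the stages. An exact two-sided permutation test within stages gave p = 0.00926, the smallest that its arrangements allow. At a single stage, 2 libraries against 2 cannot give an exact p below 0.333.

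**Figure D1:**
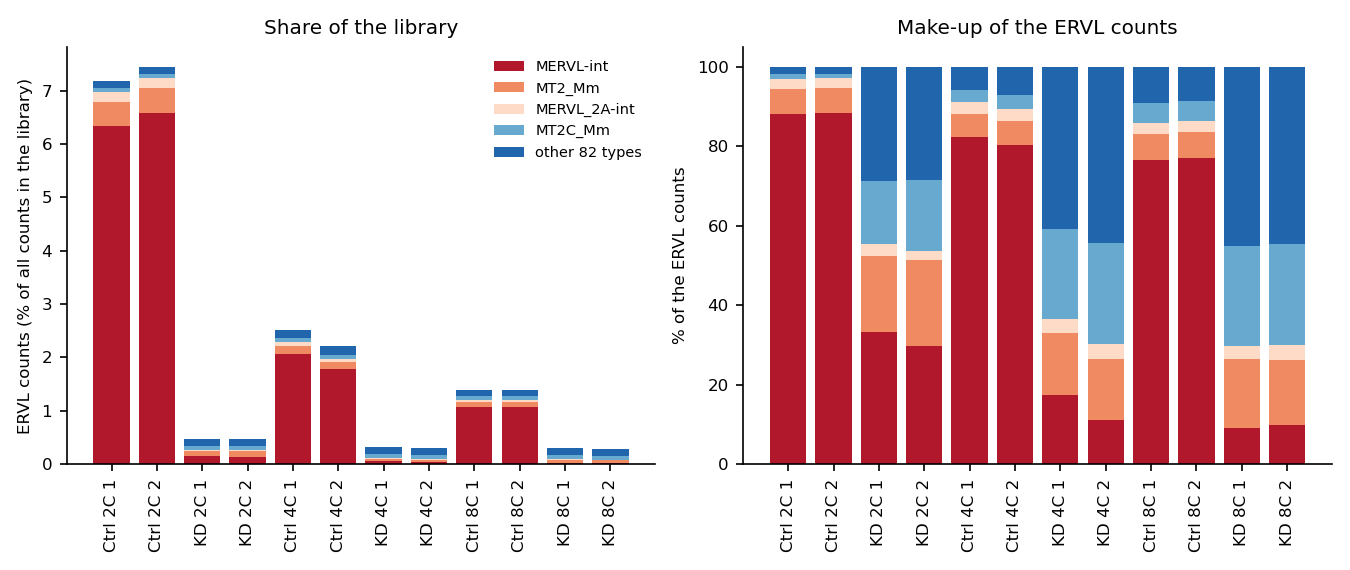
ERVL counts in each of the 12 libraries, as a stacked bar of the percentage of all counts in the library (left) and of the ERVL counts (right), split into MERVL-int, MT2_Mm, MERVL_2A-int, MT2C_Mm and the other 82 types. The control bars on the left fall from above 7% at 2C to about 1.4% at 8C and consist mainly of MERVL-int, whereas the knockdown bars stay below 0.5% and hold a mixture of types.

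The make-up of the ERVL counts changed with the knockdown. MERVL-int gave 88.1% and 88.3% of ERVL counts in the control 2C libraries and 33.2% and 29.7% in the knockdown. At the 8C stage it still gave 76.5% and 77.1% in the control but 9.01% and 9.83% in the knockdown. MT2_Mm gave between 5.91% and 6.67% of ERVL counts in the 6 control libraries and between 15.3% and 21.5% in the 6 knockdown libraries. Types other than these 2 summed to 0.407% and 0.404% of all counts in the control and 0.225% and 0.234% in the knockdown at 2C, and to 0.234% and 0.228% against 0.228% and 0.209% at 8C. Their share was lower in the knockdown by a mean of 0.463 on the log2 scale (-0.82, -0.48 and -0.09 at the 3 stages, exact permutation p = 0.00926, the smallest possible). Among them was MERVL_2A-int, at 1968 and 1991 CPM in control and 141 and 119 CPM in knockdown 2C libraries. Without it, ERVL-B4-int and ERVL-int, a set chosen after the values were seen, the 2C sum was not lower in CPM. It was 1998 and 1943 CPM in control and 2089 and 2204 CPM in knockdown libraries, and was not tested. The knockdown sum in CPM was below the control at 4C and above it at 8C. CPM are scaled by library size alone, which put the 2C median log2 fold change of all rows at 0.31. With the scaling of the edgeR fits that median was 0.02. MT2 types gave 1710 and 1699 CPM of the control 2C sum. In the 2C edgeR fit MT2B, MT2B1, MT2B2 and MT2C_Mm were at -0.27, -0.22, -0.20 and -0.25, and MT2A was at 0.23.

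Compared per kb of average copy length, MERVL-int was the highest ERVL type in control 2C embryos at 21827 ± 583 CPM per kb (SD, n = 2), followed by MT2_Mm at 9817 ± 254. MERVL_2A-int at 1947 ± 16 and MT2C_Mm at 1902 ± 60 came next and lay within their spread of each other, and MT2B1 followed at 948 ± 77 CPM per kb. In the knockdown 2C libraries the order was another one, with MT2_Mm at 2070 ± 189, MT2C_Mm at 1947 ± 177 and MT2B1 at 992 ± 29 CPM per kb, and MERVL-int lower down at 506 ± 34. These levels are divided by the average copy length of a type and take no account of how many copies it has.

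The knockdown lowered MERVL itself at every stage. MERVL-int was at 63311 and 65748 CPM in the control 2C libraries and at 1568 and 1426 CPM in the knockdown. At 4C it was at 20656 and 17793 CPM against 544 and 331 CPM, and at 8C at 10676 and 10764 CPM against 278.3 and 277.7 CPM. The groups were far apart at each stage, and both knockdown 2C libraries lay below both control 8C libraries. The log2 fold change was -5.72 ± 0.08 (SE) at 2C (edgeR, adjusted p = 1.28e-16), -5.53 ± 0.25 at 4C (adjusted p = 0.000104) and -5.40 ± 0.08 at 8C (adjusted p = 2.42e-12). Here and below, 2 libraries entered each group, and the p-values of all genes and repeat types tested were adjusted together by the Benjamini-Hochberg procedure.

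At 2C, 6 of 39 tested ERVL types fell by at least 2-fold and 0 rose, while 2.22% of all tested rows fell and 4.26% rose under the same rule. With library size alone as the scaling, 6 fell and 1, RLTR35B_MM, rose. Without the fold threshold 7 types passed in edgeR, where 14% of all rows did, and 7 in DESeq2. Each of these was lower. At an unadjusted p under 0.05 there were 15 types, with 26.8% of all rows. At 4C, 4 of 41 fell and 0 rose, against 1.87% and 2.58% of all rows. At 8C, 4 of 39 fell and 0 rose, against 1.07% and 0.632% of all rows. Without the fold threshold 5 types passed at each of these later stages in edgeR and in DESeq2, where 10.6% of all rows passed at 4C and 5.13% at 8C in edgeR. At an unadjusted p under 0.05 there were 10 and 8 types, shares close to the 24.9% and 19.5% of all rows. The median log2 fold change of the tested ERVL types was -0.11, -0.27 and 0.05 at the 3 stages, beside 0.02, 0.01 and 0.01 over all rows. Over all tested repeat types it was 0.12, -0.17 and 0.17, and over the ERVL-MaLR types 0.03, -0.24 and 0.11.

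MERVL_2A-int, a second internal type that carries the MERVL name, fell less than MERVL-int as the stages went on. Its level was 1968 and 1991 CPM in control and 141 and 119 CPM in knockdown 2C libraries. At 4C it was 754 and 631 CPM against 106 and 111 CPM, and at 8C 371 and 384 CPM against 101 and 108 CPM. The control level dropped from stage to stage, whereas the 6 knockdown libraries all lay between 101 and 141 CPM. The log2 fold change was -4.22 ± 0.09 at 2C (edgeR, adjusted p = 1.13e-13), -2.74 ± 0.11 at 4C (adjusted p = 1.15e-07) and -1.98 ± 0.09 at 8C (adjusted p = 2.31e-07).

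MT2_Mm, the LTR that drives MERVL, fell in the knockdown by less than the internal region. It was at 4516 and 4685 CPM in control and 907 and 1033 CPM in knockdown 2C libraries. At 4C it was at 1484 and 1326 CPM against 491 and 455 CPM, and at 8C at 930 and 924 CPM against 535 and 461 CPM. The groups were separate at each stage, and the knockdown 2C libraries lay on either side of the control 8C libraries. The log2 fold change was -2.53 ± 0.08 at 2C (edgeR, adjusted p = 1.37e-11), -1.63 ± 0.09 at 4C (adjusted p = 1.23e-06) and -1.03 ± 0.08 at 8C (adjusted p = 1.12e-05). The 8C value sits at the 2-fold threshold. It missed 2-fold without control replicate 1 or knockdown replicate 2, at -0.96 in the second case. With library size alone and under a filter of 1 count it also missed 2-fold, the adjusted p by edgeR remaining under 0.05.

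Of the other 5 MT2 types, 0 reached a 2-fold change at any stage. MT2B passed the adjusted threshold with small decreases of -0.27 ± 0.09 at 2C, -0.38 ± 0.09 at 4C and -0.31 ± 0.08 at 8C on the log2 scale (edgeR, adjusted p = 0.0437, 0.0208 and 0.0453). Its CPM at 4C was 379 and 376 in control and 296 and 309 in knockdown libraries, which did not overlap, whereas at 2C the control values of 245 and 248 lay between the knockdown values of 240.5 and 258. Without 1 library its adjusted p rose to 0.232 at 2C, 0.111 at 4C and 0.326 at 8C in the least favourable case. Scaled by library size alone, the 2C difference of MT2B became 0.015 and did not pass. MT2C_Mm, the second LTR by counts, was at 763 and 799 CPM in control and 748 and 850 CPM in knockdown 2C libraries, and its log2 fold changes of -0.25, -0.10 and -0.02 did not pass at any stage. MT2A, MT2B1 and MT2B2 had log2 fold changes between -0.27 and 0.23 and did not pass at any stage. At 2C MT2A, MT2B1 and MT2C_Mm passed the adjusted threshold under another setting, all below 2-fold, with MT2A at 0.52 with library size alone, MT2B1 at -0.30 with all 12 libraries in one fit, and MT2C_Mm at -0.36 without knockdown 2C replicate 2 and at -0.25 to -0.34 in 3 further settings.

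**Figure D2:**
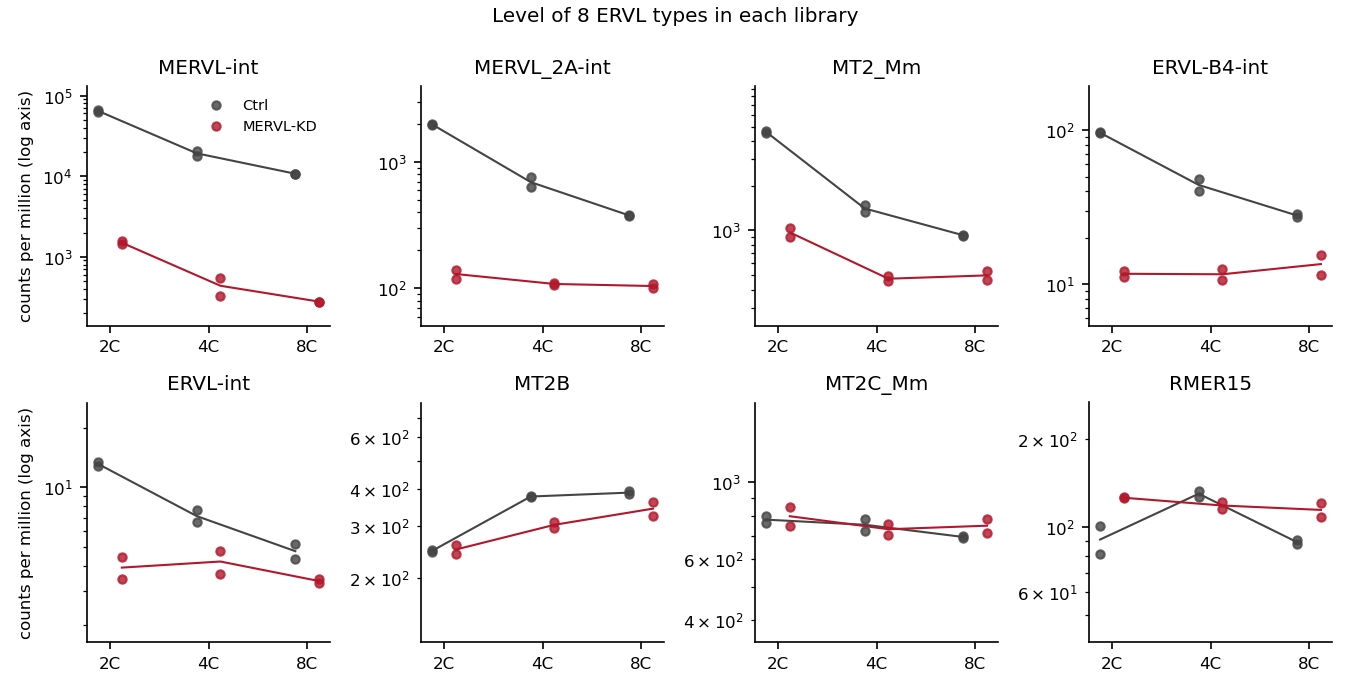
Level of 8 ERVL types in CPM (log axis) at the 3 stages, each point 1 library and each line joining the means of the 2 libraries of a group. Control levels of MERVL-int, MERVL_2A-int, MT2_Mm, ERVL-B4-int and ERVL-int fall from 2C to 8C above the knockdown points, and the points of the groups lie close together or overlap for MT2B, MT2C_Mm and RMER15.

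ERVL-B4-int, the internal region of another ERVL group, also fell at all 3 stages. It was at 95.7 and 97.0 CPM in control and 12.2 and 11.1 CPM in knockdown 2C libraries, at 48.0 and 40.2 CPM against 12.5 and 10.7 CPM at 4C, and at 28.6 and 27.2 CPM against 15.5 and 11.5 CPM at 8C. As for MERVL_2A-int, the control level fell with stage and the knockdown level varied little. The log2 fold change was -3.33 ± 0.12 at 2C (edgeR, adjusted p = 2.69e-11), -1.99 ± 0.16 at 4C (adjusted p = 1.56e-05) and -1.18 ± 0.17 at 8C (adjusted p = 0.00183).

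ERVL-int, a further internal type, was at 13.4 and 12.8 CPM in control and 4.42 and 3.41 CPM in knockdown 2C libraries, and fell by 2.03 ± 0.21 on the log2 scale (edgeR, adjusted p = 9.61e-06). At 4C and 8C its values were -0.83 ± 0.27 and -0.63 ± 0.27 (adjusted p = 0.0775 and 0.231). The other type counted as lower at 2C, LTR101_Mam, had 22 and 26 counts in the control libraries and 2 and 0 in the knockdown, at least 7.03-fold lower against a floor of 3 counts per library. It passed the filter on low counts through the control libraries alone, so its call is no support for a decrease, and 5 types were called when 10 counts were required in every library. The remaining 33 tested types at 2C were not called, with log2 fold changes from -0.96 for MER68 to 0.74 for RLTR35B_MM.

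By group, both MERVL internal types fell at each stage. Among the 13 other internal types, 7 were tested at 2C with 2 lower, 7 at 4C with 1 lower and 6 at 8C with 1 lower. None of the 3 RMER LTRs and none of the 9 MLT2 LTRs was called by edgeR or by DESeq2 at any stage, with 3 RMER types tested each time and 6, 5 and 5 MLT2 types. At an unadjusted p under 0.05 there were 2 RMER and 0 MLT2 types at each stage. The RMER types had log2 fold changes from 0.19 to 0.30 at 2C, from -0.30 to -0.19 at 4C and from 0.10 to 0.30 at 8C. Of the 53 other LTRs, 15, 18 and 17 were tested and 1, 0 and 0 were called. The 81 types left without MERVL-int, MT2_Mm, MERVL_2A-int, ERVL-B4-int and ERVL-int were chosen after their values were seen, so their sum was not tested. It was 1998 and 1943 CPM in control and 2089 and 2204 CPM in knockdown libraries at 2C, 2151 and 2323 against 1967 and 2063 CPM at 4C, and 1939 and 1867 against 2156 and 1963 CPM at 8C. In CPM, scaled by library size alone, the knockdown values were above the control values at 2C and 8C and below them at 4C. With that scaling the median log2 fold change of all rows was 0.31, 0.08 and 0.14. Over all tested repeat types it was then 0.41, -0.11 and 0.30. With the scaling of the edgeR fits the repeat median was 0.12, -0.17 and 0.17, and the RMER types had the same signs. The sum was not computed with that scaling, so its direction under it is not given.

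**Figure D3:**
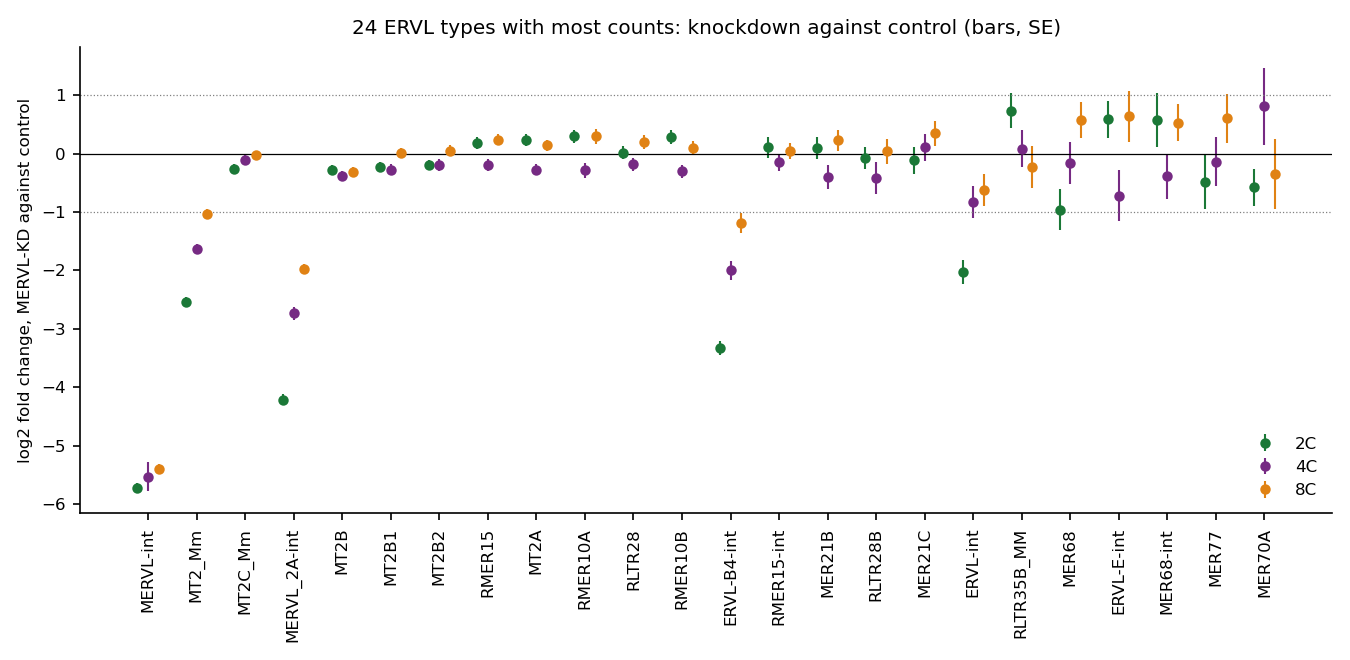
Log2 fold change of MERVL-KD against control, with its SE, for the 24 tested ERVL types with most counts, at 2C, 4C and 8C. MERVL-int, MT2_Mm, MERVL_2A-int, ERVL-B4-int and, at 2C, ERVL-int lie below the dotted line of a 2-fold decrease, while the other 19 types lie between the dotted lines at each stage where they were tested.

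The ratio of LTR to internal counts, which compares features of one library and does not depend on its scaling, differed between the groups in every library. In the control there was 1 MT2_Mm count for every 14.0 and 14.0 MERVL-int counts at 2C, for every 13.9 and 13.4 at 4C and for every 11.5 and 11.7 at 8C. In the knockdown there was 1 for every 1.73 and 1.38 at 2C, for every 1.11 and 0.726 at 4C and for every 0.520 and 0.603 at 8C. MT2_Mm thus outnumbered MERVL-int in the second 4C and in both 8C knockdown libraries. The ratio of MT2_Mm to MERVL-int was higher in the knockdown by 3.18, 3.93 and 4.37 on the log2 scale at the 3 stages, with a mean of 3.83 (exact two-sided permutation within stages, p = 0.00926, the smallest possible). The ratio of MERVL_2A-int to MERVL-int was higher by 1.50, 2.83 and 3.42, with a mean of 2.58 (exact permutation p = 0.00926, likewise the smallest possible). Ratios of counts show unequal change and say nothing of absolute amounts.

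**Figure D4:**
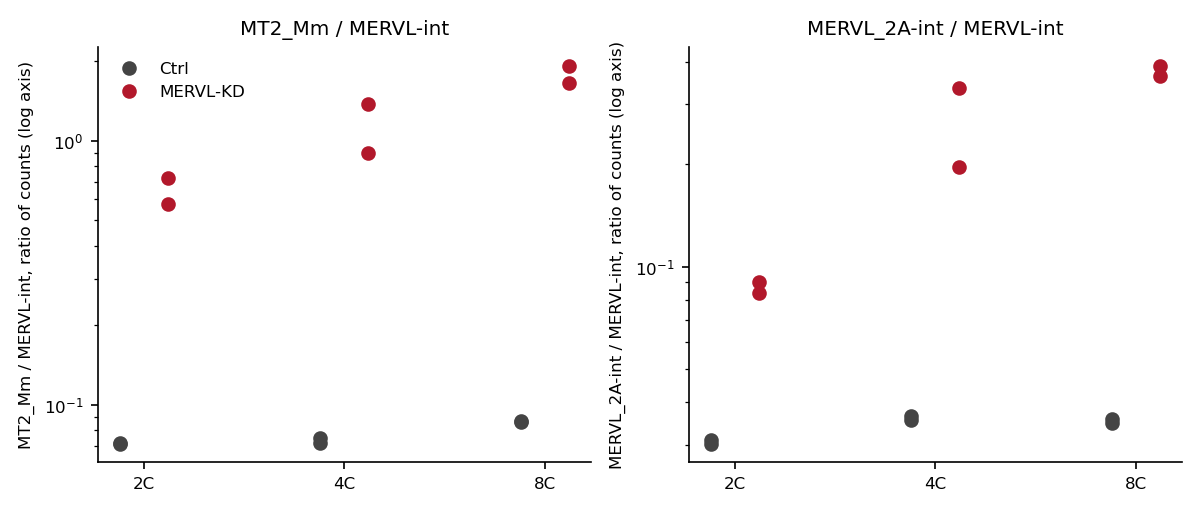
Ratio of MT2_Mm counts (left) and of MERVL_2A-int counts (right) to MERVL-int counts on a log axis, each point 1 library. The 6 control libraries hold nearly one ratio in each plot, and the 6 knockdown libraries lie above them and higher at 4C and 8C than at 2C.

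The stage course without knockdown was followed in the control libraries, in one fit of the 12 libraries with 44 ERVL types tested. From 2C to 4C 6 ERVL types fell and 4 rose, where 23.7% of all rows fell and 20.4% rose. MERVL-int fell by 1.92 ± 0.17, MT2_Mm by 1.88 ± 0.09, MERVL_2A-int by 1.68 ± 0.11, ERVL-B4-int by 1.30 ± 0.14 and ERVL-int by 1.04 ± 0.25 on the log2 scale (edgeR, adjusted p from 3.76e-13 to 0.0012). MER70A, at 100 and 145 counts in the 2C and 12 and 29 counts in the 4C libraries, was the other type to fall. The types that rose were RMER10A (1.05 ± 0.13), MER68-int (1.30 ± 0.43), LTR41 (1.77 ± 0.74) and MER70B (2.65 ± 0.84), of which MER68-int, LTR41 and MER70B had under 100 counts in any control library at these stages. Calls of ERVL-int, RMER10A, MER68-int, LTR41 and MER70B were each lost without 1 or more of the control 2C and 4C libraries, and 8 to 12 types were called in all. ERVL-int ran from -1.10 to -0.86 with 1 library left out, on either side of the 2-fold threshold. It was also short of 2-fold without either control 8C, knockdown 2C or knockdown 8C library, or without knockdown 4C replicate 2. With library size alone 6 rose and 5 fell, MER21B and RMER10B being added and ERVL-int lost. With other scalings 2 rose and 6 fell (DESeq2 size factors) or 6 rose and 6 fell (scaling from gene rows). From 4C to 8C 0 types were called by edgeR and 0 by DESeq2, against 0.467% of all rows higher and 1.08% lower. MERVL-int (-0.64 ± 0.16), MT2_Mm (-0.40 ± 0.09) and MERVL_2A-int (-0.67 ± 0.10) passed the adjusted threshold at less than 2-fold (edgeR, adjusted p = 0.0448, 0.0127 and 0.000879), as did 3.02% of all rows in the same direction. MERVL-int missed the threshold with DESeq2 size factors and without any 1 library other than the knockdown 4C libraries, its adjusted p by edgeR then reaching up to 0.224. MT2_Mm missed it without control 4C replicate 1 or either control 8C replicate (adjusted p up to 0.196). At an unadjusted p under 0.05 there were 15 of 44 types, with 19.8% of all rows.

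In MERVL-KD embryos the same step from 2C to 4C called 1 ERVL type lower and 2 higher, with 22.4% and 20.7% of all rows. MERVL-int fell by 1.65 ± 0.17 (edgeR, adjusted p = 5.98e-06), so its further decline was present in the knockdown too. MT2_Mm passed the adjusted threshold at -0.90 ± 0.09 (adjusted p = 3.03e-08), under 2-fold. MERVL_2A-int was at -0.12 ± 0.11, ERVL-B4-int at 0.12 ± 0.15 and ERVL-int at 0.23 ± 0.26, and none of these 3 passed. The types that rose were MER68 (1.14 ± 0.37) and MER73 (2.92 ± 1.23), the second from 4 and 0 counts to 6 and 22. MER68 was lost without knockdown 4C replicate 1 and MER73 without several of the libraries, and with library size alone 1 type rose and 2 fell. When 10 counts were required in every library, MER68 fell just short of 2-fold and MER73 was not tested, while MT2_Mm and MER70A were called lower. From 4C to 8C in the knockdown, 0 types were called by edgeR or by DESeq2, beside 0.322% of all rows higher and 1.27% lower. At an unadjusted p under 0.05 there were 5 types, with 18.1% of all rows.

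The knockdown effect itself was compared between the stages by interaction contrasts in the 12-library fit, where a positive value is a smaller decrease at the later stage. From 2C to 4C the effect differed for 4 ERVL types, all positive, beside 2.47% of all rows in that direction. These were MERVL_2A-int (1.56 ± 0.15), ERVL-B4-int (1.42 ± 0.21), ERVL-int (1.27 ± 0.36) and MT2_Mm (0.98 ± 0.13). From 2C to 8C the same 4 types differed, beside 2.35% of all rows, and from 4C to 8C MERVL_2A-int and MT2_Mm differed, beside 0.302%. MERVL-int did not pass in any of the 3 contrasts, at 0.27 ± 0.23, 0.40 ± 0.23 and 0.13 ± 0.23 for 4C against 2C, 8C against 2C and 8C against 4C (edgeR, adjusted p = 0.628, 0.428 and 0.892). ERVL-int was not called from 2C to 4C when any 1 of the 12 libraries was left out, and its 2C to 8C adjusted p (edgeR) reached up to 0.126 without 1 library, and the 4C to 8C calls numbered 0 without control 4C replicate 1, control 8C replicate 1 or control 8C replicate 2. From 2C to 4C MT2A and RMER10B were also called, both negative, by DESeq2 (-0.42 and -0.50), under the filter of 10 counts in every library and without any 1 of the 8C libraries. With library size alone, 3 types were positive and 4 negative. MERVL-int was called from 2C to 8C without knockdown 4C replicate 1 (edgeR, adjusted p = 0.0458). The comparisons share libraries and are not independent of each other.

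Known regulators of MERVL were read from a fixed list of 6 activators and 15 silencers, all of them tested at each stage. Among the activators at 2C, Zscan4c, a 2-cell gene often used as a marker of MERVL-active cells, was the one called at 2-fold, at -1.47 ± 0.16 (edgeR, adjusted p = 1.93e-05). Zscan4f (-0.98 ± 0.15), Dppa2 (-0.45 ± 0.10) and Dppa4 (-0.38 ± 0.12), the latter pair encoding chromatin proteins upstream of Dux, passed the adjusted threshold below 2-fold (adjusted p = 0.000282, 0.00535 and 0.0385). Duxf3, the transcription factor Dux that binds MERVL LTRs, was at -0.61 ± 0.38 (adjusted p = 0.339). Of the 6 activators 4 passed at 2C in edgeR, where 14% of all rows did. In DESeq2 5 passed, the further one being Zscan4d at -0.45 (DESeq2, adjusted p = 0.0375). At 4C and 8C 0 of them passed in edgeR, and 2 and 0 had an unadjusted p under 0.05. At 4C Zscan4c had a positive value of 2.44 ± 0.86, from 0.346 and 0.213 CPM in control and 2.88 and 0.423 CPM in knockdown libraries, and missed the threshold (edgeR, adjusted p = 0.0968). Dppa2, at -0.29 at 4C, passed in DESeq2 (adjusted p = 0.0354) and missed it in edgeR (adjusted p = 0.0608). Of the 15 silencers 0 were called at 2-fold by edgeR at any stage. At an unadjusted p under 0.05 there were 5, 6 and 7 of them at 2C, 4C and 8C, where 26.8%, 24.9% and 19.5% of all rows passed. The adjusted threshold was passed by 3, 3 and 2 silencers, all lower, where 14%, 10.6% and 5.13% of all rows passed. At 2C these were Setdb1, a histone methyltransferase, Zmym2 and Chaf1a, a subunit of a chromatin assembly factor, at -0.36, -0.46 and -0.43 (edgeR, adjusted p = 0.0245, 0.00828 and 0.00483). At 4C they were Chaf1a (-0.54 ± 0.11), the SUMO ligase Pias4 (-0.48 ± 0.10) and Trim28, the corepressor of zinc finger repressors of retroviruses (-0.33 ± 0.09), with adjusted p = 0.00791, 0.0129 and 0.0392 by edgeR. At 8C Trim28 was at -0.57 ± 0.07 and Pias4 at -0.42 ± 0.11 (edgeR, adjusted p = 0.00098 and 0.0421). In DESeq2 3 silencers passed at 8C, the further one being Ehmt2 at -0.36 (DESeq2, adjusted p = 0.0328). With library size alone as the scaling the directions stayed, but Dppa2, Dppa4, Setdb1, Zmym2 and Chaf1a at 2C, Trim28 at 4C and Pias4 at 8C missed the threshold.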

How the data were processed

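Total RNA of 12 libraries of pooled embryos from B6D2F1 parents was analysed, 2 per group. The authors aligned the reads with STAR 2.5.3a to GRCm38, kept unique alignments, counted them with featureCounts per GENCODE gene and, over all copies, per RepeatMasker repeat type, and deposited raw counts for each library. Unique alignment loses reads from near-identical young copies such as MERVL, and fragments over the edge of an LTR and an internal region go to one of the types. The files pair a repeat type with an average copy length and no coordinates. The deposited lengths were used for levels per kb. Between 71.7% and 74.5% of the counts from 1 to 50 in a library were even, so both mates of a pair were mostly counted, and counting error is larger than counts imply. The counts carry no molecular identifiers. No file held other samples, and 0 rows named neither gene nor repeat type.

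From the deposited counts, log2 fold changes and standard errors were computed with edgeR 4.0.16 in R 4.3.3 (filterByExpr with a minimum count of 10, TMM scaling, robust quasi-likelihood test), stage by stage for knockdown against control and in one fit of the 12 libraries for stage contrasts and interactions. Adjustment was by Benjamini-Hochberg over all rows. Calls required a change of 2-fold or more together with an adjusted p below 0.05, the fold being waived for interactions. CPM were counts scaled to a library total of 1000000, without TMM factors. Ratios and shares were tested by exact permutation of the group within stages. The scripts were tested on simulated data. Types were named by a rule: MERVL-int, every MT2 type, internal types and every called type, plus the 5 highest types per kb in control 2C embryos. Alternatives were DESeq2 1.42.0, its size factors, library size, scaling from gene rows, filters of 1 count and of 10 counts in every library, a replicate block, halved counts, 1 fit of 12 libraries, no fold threshold and each library left out. The members and lists were chosen with earlier results of these data known. ASO sequences came from the study's supplementary tables. Sites were sought in GRCm38 with up to 2 mismatches and LTR copies with BLAST, over at least 300 bases, with GENCODE vM21 for gene positions.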

Additional observations from a re-analysis of the deposited data

Results flagged for a closer look

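The knockdown effect of 4 ERVL types differed between stages by a test of the difference itself, the interaction contrast of the 12-library edgeR fit, and a positive value is a smaller decrease at the later stage. For MERVL_2A-int the difference was 1.56 ± 0.15 (SE, log2 scale) for 4C against 2C (adjusted p = 3.12e-06), 0.76 ± 0.15 for 8C against 4C (adjusted p = 0.0211) and 2.32 ± 0.15 for 8C against 2C (adjusted p = 1.21e-08). For MT2_Mm it was 0.98 ± 0.13 (adjusted p = 0.000163), 0.60 ± 0.13 (adjusted p = 0.0364) and 1.58 ± 0.13 (adjusted p = 3.64e-07) in the same order. ERVL-B4-int differed by 1.42 ± 0.21 for 4C against 2C (adjusted p = 0.000438) and by 2.23 ± 0.21 for 8C against 2C (adjusted p = 1.82e-06). ERVL-int differed by 1.27 ± 0.36 (adjusted p = 0.0479) and 1.48 ± 0.36 (adjusted p = 0.0216) in the same order. In these contrasts each stage has 2 libraries a group, so the search for a single library far from its group, which needs 4, could not be run.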

How the results depend on the processing

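The numbers of ERVL types called in knockdown against control stayed within 1.5 times under every alternative, from 5 to 7 at 2C, 4 to 5 at 4C and 3 to 5 at 8C. The types that left the calls were LTR101_Mam at 2C and MT2_Mm at 8C. Without 1 library, counts ran from 6 to 6 at 2C, 4 to 4 at 4C and 3 to 4 at 8C. The 4 interaction calls for 4C against 2C became 7 with library size alone, of which 4 were lower. The 2 calls for 8C against 4C ranged from 0 to 2 without 1 library, with 0 left without control 4C replicate 1, control 8C replicate 1 or control 8C replicate 2. ERVL-int was not called for 4C against 2C without any 1 of the 12 libraries, under the replicate block or under the filter of 1 count, and the cause was not tested.

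Library size alone moved the median of all rows from 0.02 to 0.31 at 2C and from 0.01 to 0.14 at 8C, and with it differences near 0 changed sign: at 2C MT2B to 0.015, MT2B1 to 0.066, MT2B2 to 0.090 and MT2C_Mm to 0.034, at 8C MT2C_Mm to 0.11, in knockdown 4C against 2C ERVL-B4-int to -0.011, in knockdown 8C against 4C MERVL_2A-int to -0.055 and the interaction of MERVL-int for 4C against 2C to -0.029. Other changes of sign were MT2B1 at 8C (-0.00031 with 12 libraries in one fit), MT2C_Mm at 8C (0.0080 and 0.0014 with filters of 1 count and of 10 counts) and ERVL-B4-int in knockdown 4C against 2C (-0.028 with the filter of 10 counts). Without 1 library, MT2B1 (-0.046 to 0.074), MT2B2 (-0.039 to 0.14) and MT2C_Mm (-0.044 to 0.014) at 8C, MERVL_2A-int in knockdown 4C against 2C (-0.25 to 0.056), and the interactions of MERVL-int for 4C against 2C (-0.080 to 0.43) and 8C against 4C (-0.12 to 0.48) also changed sign, and none of these values passed the test.

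Replicates of a number did not deviate together, with a correlation of -0.064, 0.0048 and 0.025 at 2C, 4C and 8C. With 2 libraries a group this cannot exclude that equal numbers were collected or processed together. With a replicate block the calls numbered 6, 4 and 4 at the 3 stages, 10 and 2 for 2C to 4C in control and knockdown, and 3, 2 and 4 in the interactions. The exact test of the ratios then gave p = 0.0312 at unchanged values of 3.83, 2.58, -3.04 and -0.46. Unique alignment and summing over copies limit what can be said about any single locus.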

Other observations

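MERVL-int stood at 544 and 331 CPM in the knockdown 4C libraries, a pair singled out after the values were seen. In the same libraries MERVL_2A-int was at 106 and 111 CPM, MT2_Mm at 491 and 455 CPM and MT2C_Mm at 705 and 760 CPM. Leaving out the first of them moved the 4C log2 fold change of MERVL-int to -5.88 and leaving out the second moved it to -5.25, both called.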
